A study of Homo sapiens with 16 samples.

Results

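Endocytic receptors for mannosylated glycans, modified lipoproteins and other debris were followed in 3 single cell RNA sequencing experiments on mouse mammary tumors. The receptors were chosen by name as 8 genes, Mrc1, Msr1, Marco, Cd163, Stab1, Cd36, Siglec1 and Clec7a. A count column was found for 7 of the 8 among 32285 genes, and Clec7a was not analysed here. The UMIs (unique molecular identifiers, one per captured RNA molecule) of each receptor gene were summed over the cells of each deposited cluster and divided by all UMIs of those cells, and the result is given as UMIs per 1000000 UMIs (CPM) with the range over the sequenced pools.

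The cells came from LPA1-T22 and LPA1-T127, transplantable tumors from mice that carry the lysophosphatidic acid receptor LPA1 as a transgene in the mammary epithelium, grown in female FVB hosts of 6 weeks with their own immune system. LPA1-T22 is the olaparib-sensitive and LPA1-T127 the olaparib-resistant tumor, and hosts received vehicle or the PARP inhibitor olaparib at 50 mg/kg/day. In the long-term experiment hosts carried 1 model or both and were treated for 20 days, and its 8 pools mix the models. In the short-term experiments hosts carried T22 or T127 alone and were treated for 4 or 8 days, with 4 pools for each model. A pool joins hashtagged tumors of both treatments, and no map from cells to tumors was used here, so vehicle and olaparib were not compared. How the tumors were spread over the pools was not analysed here, so pools are not taken as separate animals, and a difference between the short-term experiments cannot be told apart from one between captures of the 2 models. For the same reason no p-values are given. Ranges over pools give the spread between pools, which is not taken as the spread between tumors or animals. The 95% intervals on single values cover counting error only.

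Macrophages clear dead cells, matrix fragments, lipoproteins and glycoproteins through such receptors, which bind broad classes of ligand and carry them to the lysosome. Mrc1 and Siglec1 are lectins that bind mannose-type sugars and sialic acid, Msr1 and Marco are class A scavenger receptors, Cd36 is a class B scavenger receptor that also takes up fatty acids, Cd163 takes up hemoglobin bound to haptoglobin, and Stab1 is an endocytic receptor shared by macrophages and sinusoidal and lymphatic endothelium. Mrc1 and Cd163 are common labels of macrophages polarised by IL-4, IL-10 or glucocorticoids, so their level in the cluster named Macro-M2 is no independent finding.

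The 8 long-term pools held 30845 cells and 34755906 to 44032925 UMIs each. In them 4146 cell barcodes stood in more than 1 pool, mostly in pools 1 to 3, and 2774 of these carried different cluster names in different pools. Of each shared barcode the deepest copy was kept, which left 25723 cells. Barcodes shared between pools numbered 20 in short-term T22 and 3 in T127. The short-term pools held 15094 cells for T22 and 8007 for T127, with a median of 7730 to 8528 and 22712 to 26017 UMIs per cell. Clusters were deposited by the study and built from these same cells, so levels between clusters are a description without a test. A lower level in a cluster can mean fewer cells with the gene or fewer molecules per cell, and the sums do not separate the 2. The macrophage marker list summed to 32116 CPM in long-term Macro-M2 and to 23020 to 34436 CPM in Macro-M1, Macro-others, Macro-MKI67 and CD16-CDKN1C. It reached 10429 CPM in CD14-IL1B, where Xcr1 (186 CPM), a dendritic cell gene, was also found, so that cluster is called by its deposited name without a cell type.

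Mrc1 was highest in Macro-M2. Its level there was 535 CPM, with a lowest, median and highest pool of 456, 503 and 765 CPM. Macro-MKI67, the cycling macrophages, followed with 343 CPM (pools 283 to 440), and their ranges did not overlap. The next clusters were CD14-IL1B at 284 CPM, CD16-CDKN1C at 219 CPM, CD14-PF4 at 207 CPM, Macro-others at 157 CPM and Macro-M1 at 107 CPM (pools 57.1 to 136). Each of these overlapped its neighbour in the order. A gap followed, since the highest of the remaining clusters, the B cells, stood at 8.87 CPM with no pool above 18.9 CPM. The 7 clusters with Macro, CD14 or CD16 names, CD14-IL1B among them, made up 60.1% of the cells and held 99.1% of the Mrc1 UMIs. Mrc1 was also highest in Macro-M2 in the short-term pools, at 186 CPM in T22, where the range overlapped Macro-MKI67, and 1047 CPM in T127. Of the 7 receptors 4 were highest in Macro-M2 in the long-term pools, 3 in T22 and 2 in T127. How many of all genes were highest in Macro-M2 was not counted, so these counts have no background to be set against. In T127 Siglec1 (69.0 against 58.6 CPM) and Stab1 (129 against 106 CPM) were higher in CD16-CDKN1C than in Macro-M2, with overlapping ranges, and Cd163 was highest in pDC (9.51 CPM, 10 UMIs).

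**Figure D1:**
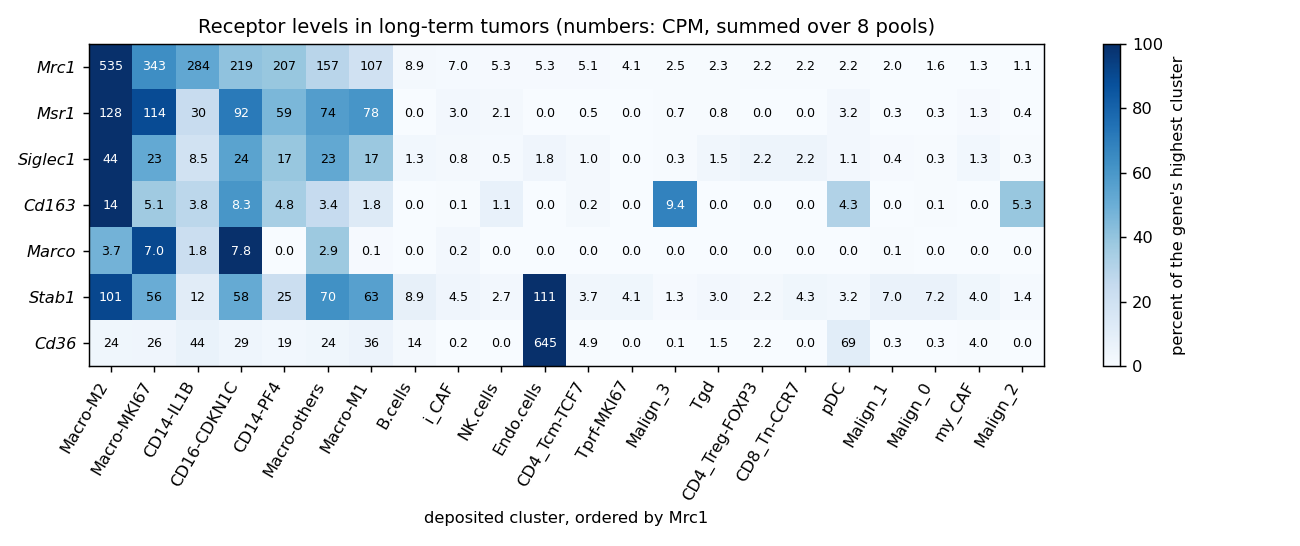
Level of the 7 measured receptor genes in the 22 long-term clusters with at least 20 cells. Numbers are CPM over all pools, and shading is the level as a percentage of that gene's highest cluster, so shades are not comparable between genes. Mrc1, Msr1, Siglec1 and Cd163 peak in Macro-M2, Stab1 and Cd36 in endothelial cells and Marco in CD16-CDKN1C.

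Msr1 and Siglec1 were also highest in Macro-M2, with smaller steps between clusters. Msr1 stood at 128 CPM in Macro-M2, with a lowest, median and highest pool of 84.5, 131 and 183 CPM, and at 114 CPM in Macro-MKI67, whose range overlapped. CD16-CDKN1C (91.6 CPM), Macro-M1 (78.2 CPM), Macro-others (73.6 CPM) and CD14-IL1B (30.2 CPM) were lower, and no cluster outside these and CD14-PF4 (58.9 CPM) was above 3.23 CPM. Siglec1, the sialoadhesin of lymph node and tissue macrophages, was at 44.1 CPM in Macro-M2, with pools of 39.0, 44.6 and 49.4 CPM as lowest, median and highest. These lay above every pool of CD16-CDKN1C (24.3 CPM), which was next and overlapped Macro-others (23.2 CPM) and Macro-MKI67 (23.0 CPM). The 7 clusters with Macro, CD14 or CD16 names held 99.3% of the Msr1 and 98.4% of the Siglec1 UMIs.

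Marco and Cd163 were sparse, and few cells carried them. In Macro-M2 Cd163 stood at 13.7 CPM, with a lowest, median and highest pool of 6.49, 12.9 and 23.7 CPM. These were 564 UMIs in 156 of 3567 cells, and 32 cells with 5 or more UMIs held 67.2% of them. In CD16-CDKN1C Cd163 reached 8.27 CPM, but pool 4 alone stood at 40.8 CPM against 0.807 to 6.75 CPM in the others. One cell of that pool gave 86 of the cluster's 279 Cd163 UMIs, and without the 5 cells with most of the gene the level was 3.63 CPM. Without pool 4 it was 4.70 CPM. Marco, which binds bacteria and particles, showed the same concentration. Its highest level, 7.79 CPM in CD16-CDKN1C, came from 29 of 5979 cells, and 1 cell held 65 of the 263 Marco UMIs. The pools ranged from 0.188 to 35.7 CPM, and without pool 4, the highest, the level was 4.73 CPM, with CD16-CDKN1C still first. Macro-MKI67 followed at 7.03 CPM and Macro-M2 at 3.73 CPM. Without the 5 cells with most Marco in each cluster the levels were 2.35 CPM in CD16-CDKN1C, 1.73 CPM in Macro-M2 and 0.455 CPM in Macro-MKI67. Most of the Marco signal came from a handful of cells, and 3 of the alternatives in the closing section put Macro-MKI67 first. By contrast, Msr1 was found in 2060 of the 3567 Macro-M2 cells, and the 5 richest cells held 1.93% of its UMIs there.

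Stab1 and Cd36 were receptors of endothelium as well as macrophages. Stab1 was at 111 CPM in the 249 long-term endothelial cells, with a lowest, median and highest pool of 76.0, 104 and 199 CPM, and at 101 CPM in Macro-M2, with pools of 82.1, 97.0 and 142 CPM. These ranges overlapped almost fully, and without pool 5, the highest endothelial pool, Macro-M2 came first. Macro-others (69.8 CPM), Macro-M1 (62.6 CPM), CD16-CDKN1C (57.6 CPM) and Macro-MKI67 (56.4 CPM) followed and overlapped one another. Cd36 was at 645 CPM in endothelial cells, with a lowest pool of 306 and a highest of 932 CPM, all above every pool of any other cluster. The pDC (plasmacytoid dendritic cell) cluster was next at 68.9 CPM (pools 25.5 to 113), followed by CD14-IL1B at 44.5 CPM, and Macro-M2, at 24.4 CPM, was below Macro-M1, at 35.6 CPM, with overlapping ranges. Endothelial cells were 0.968% of the cells and held 15.6% of all Cd36 UMIs. Msr1, Cd163 and Marco had no UMI in the long-term endothelial cells, which allows up to 2.63 CPM for each.

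Neither Cd36 nor Stab1 was 2-fold apart between the short-term models in endothelial cells. The level of Cd36 was 244, 279, 325 and 117 CPM in the T22 pools and 169, 249, 194 and 415 CPM in the T127 pools. Stab1 in endothelial cells was 156, 131, 128 and 150 CPM in T22 and 99.7, 86.8, 127.1 and 102 CPM in T127. The Cd36 ranges overlapped, with a T127 to T22 ratio of 1.04 (95% interval 0.857 to 1.26), while Stab1 was 1.40-fold higher in T22 (1.07 to 1.83), with ranges less than 1 CPM apart. Each of these rests on under 300 UMIs.

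In malignant cells Cd163 and Stab1 lay furthest above a macrophage gene used as a yardstick. In lymphocytes Stab1 also exceeded it, as did Cd163 in short-term T22. In droplet data RNA released from broken cells enters other droplets, so each level was set beside C1qa, an abundant complement gene of macrophages. C1qa in the 7 lymphocyte clusters of the long-term pools was 1.27% of its Macro-M2 level, and Mrc1 there was 0.890% (interval 0.647 to 1.195). Cd163 there was at 2.37% (0.486 to 6.95), on 3 UMIs. Stab1 (3.75%, interval 2.61 to 5.23) and Cd36 (15.1%, 10.4 to 21.3) in the lymphocytes lay above C1qa. Whether this was free RNA or RNA of the lymphocytes themselves was not tested. Malign_3 and Malign_2 are the malignant clusters that were also found in the short-term T22 pools. In the long-term pools C1qa in Malign_3 and Malign_2 was at 0.837% and 0.429% of its Macro-M2 level and Mrc1 at 0.473% and 0.206%. Cd163 there was at 68.3% (56.6 to 82.0) and 38.7% (31.6 to 47.0). In CPM, Malign_3 had 9.38 (pools 7.37 to 13.6) and Malign_2 5.31 (pools 2.34 to 7.13), which overlapped Macro-M2. The signal was spread thinly, as 148 UMIs in 113 of the 907 Malign_3 cells, with 1 cell at 5 or more UMIs. After thinning to 3000 UMIs per cell, 3.20% of Malign_3 cells and 2.11% of Macro-M2 cells had a Cd163 UMI. The malignant clusters held 20.5% of all Cd163 UMIs in the long-term pools. Malign_0 and Malign_1, the malignant clusters also found in the short-term T127 pools, had 5 and 1 Cd163 UMIs in the long-term pools.

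The short-term pools, which hold 1 model each, gave the same split. Cd163 was at 9.54 CPM in Malign_3 and 4.02 CPM in Malign_2 of T22, above its 2.31 CPM in Macro-M2 of those pools, while the T127 malignant clusters had no Cd163 UMI. In the T22 lymphocytes Cd163 was at 0.399 CPM, on 15 UMIs. That was 17.3% of its Macro-M2 level (8.29 to 35.2), with C1qa at 0.776%. UMIs over introns were counted as well as those over exons, and the counts do not say which part of the gene they came from. Stab1 showed the reverse split, at a lower percentage of its Macro-M2 level but at 7.25 CPM in Malign_0 and 6.96 CPM in Malign_1. The malignant clusters held 768 Stab1 and 279 Cd163 UMIs. Stab1 was at 7.18% and 6.89% of its Macro-M2 level in Malign_0 and Malign_1 and at 1.39% and 1.25% in Malign_2 and Malign_3 of the long-term pools, where C1qa was at 0.353% to 0.837% and Stab1 in lymphocytes at 3.75%. Cd36 in Malign_0 (1.08%, interval 0.616 to 1.77) and Malign_1 (1.14%, 0.569 to 2.05) and Siglec1 in Malign_1 (0.976%, 0.567 to 1.57) were also above C1qa there, on 11 to 17 UMIs each. These lay below the lymphocyte levels of Cd36 (15.1%) and Siglec1 (2.46%). In the short-term T127 pools Stab1 in Malign_0 and Malign_1 was at 6.02% and 4.80%, with C1qa at 0.0875% and 0.105%. Also above C1qa there were Mrc1 (0.148%, 0.125 to 0.174), Siglec1 (0.218%, 0.112 to 0.382) and Cd36 (0.422%, 0.136 to 1.00) in Malign_0. Cd36 in Malign_1 (0.971%, 0.458 to 1.83) was above it as well.

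**Figure D2:**
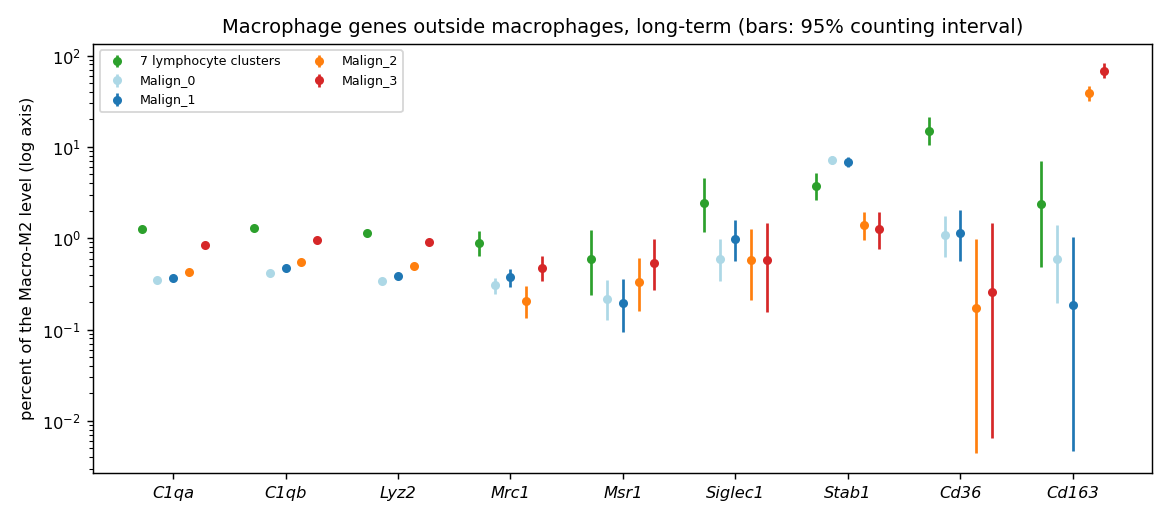
Level of 6 receptor genes and of the macrophage genes C1qa, C1qb and Lyz2 in lymphocytes and in the malignant clusters of the long-term pools, as a percentage of the Macro-M2 level, on a log axis with 95% counting intervals. Among the malignant clusters, Cd163 in Malign_2 and Malign_3 and Stab1 in Malign_0 and Malign_1 lie furthest above C1qa. In lymphocytes Stab1 also lies above C1qa, at 3.75%.

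Macro-M2 and Macro-M1 were compared within the long-term pools, taking a gene as different where it was at least 2-fold apart over all pools and apart the same way in each of the 8. Of the 7 receptors 3 were higher in Macro-M2, against 3.43% of the 8525 genes with at least 5 CPM in either cluster, and none was lower, against 0.106% of genes. Mrc1 and Cd163 are among these 3, and as labels of the cells that the cluster is named for they are no independent finding. The clusters were built from these same cells, so the Siglec1 difference is a description as well. Cd163 reached 5 CPM only in Macro-M2 (13.7 CPM, against 1.79 CPM in Macro-M1). Mrc1 in Macro-M1 had a lowest, median and highest pool of 57.1, 103 and 136 CPM, all below the lowest Macro-M2 pool, and the ratio was 5.02 (4.75 to 5.32). Cd163 in Macro-M1 was at 0 CPM in 2 pools and at 8.84 CPM in the highest, for 21 UMIs in all and a ratio of 7.69 (4.98 to 12.5). On the log2(CPM + 1) scale the Cd163 difference was 2.40, and 3.06 without pool 4. Siglec1 in Macro-M1 was at 9.52, 14.0 and 27.1 CPM in the lowest, median and highest pool, below all Macro-M2 pools, with a ratio of 2.62 (2.26 to 3.05).

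Msr1 and Stab1 were also higher in Macro-M2 in 8 of 8 pools, by 1.64-fold and 1.61-fold, less than the 2-fold limit. Cd36 was the 1 receptor on the other side, higher in Macro-M1 by 1.46-fold over all pools and in 6 of 8 pools. Marco had 153 UMIs in Macro-M2 and 1 in Macro-M1 and did not reach 5 CPM. The median log2 ratio of all genes was 0.10. With barcodes found in 1 pool only, Mrc1 (552 and 116 CPM) and Siglec1 (44.6 and 18.4 CPM) still passed, while Cd163 (13.2 and 2.29 CPM) was higher in 7 of 8 pools. The 3 lymphatic endothelial genes summed to 78.3 CPM in Macro-M2 (pools 64.1 to 95.4) and 14.0 CPM in Macro-M1 (0 to 23.1), mostly Pdpn and Lyve1 with Prox1 at 0.146 CPM, and the ranges of the other marker lists overlapped between the clusters.

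In the short-term T22 pools, which hold 1203 Macro-M1 cells, only Mrc1 of the 7 passed, against 1.49% of genes higher and 1.72% lower. Mrc1 was 209, 116, 147 and 257 CPM in Macro-M2 and 52.3, 69.1, 63.6 and 68.2 CPM in Macro-M1 of the T22 pools, a ratio of 2.94 (2.72 to 3.17). Siglec1 was 1.52-fold and Msr1 1.17-fold higher, each in 4 of 4 pools, Stab1 was level at a ratio of 1.00, and Cd36 was 1.29-fold higher in Macro-M2 in 3 of 4 pools, the opposite side from the long-term pools. Without the 5 cells with most Cd36 in each cluster, the T22 levels were closer, at 58.5 CPM in Macro-M2 and 54.4 CPM in Macro-M1. The short-term T127 pools held 3 cells named Macro-M1 and allowed no such comparison.

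Within Macro-M2, Mrc1, Siglec1 and Msr1 were higher and Cd36 was lower in short-term T127 than in T22. A gene was taken as different where the level over all pools was at least 2-fold apart and the pool ranges did not overlap. Of the 7 receptors 4 were higher in T127, against 7.97% of 9254 genes, and 1 was lower, against 6.74%. Of the 4, Cd163 reached the 5 CPM limit only in T127 (5.13 CPM, against 2.31 CPM in T22). Mrc1 in the T22 pools was given above, and in the T127 pools it was 1068, 1006, 974 and 1134 CPM, so that the lowest T127 pool was far above the highest T22 pool and the ratio was 5.64 (5.37 to 5.94). Siglec1 was 15.3, 17.3, 13.9 and 20.6 CPM in T22 and 59.3, 66.7, 57.1 and 50.8 CPM in T127, with no overlap and a ratio of 3.47 (2.92 to 4.14).

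Msr1 was 63.8, 66.4, 68.3 and 75.1 CPM in the T22 pools and 181, 142, 137 and 179 CPM in the T127 pools, a ratio of 2.35 (2.15 to 2.57) without overlap. Cd163 was 2.83, 3.10, 1.03 and 2.06 CPM in T22 and 9.97, 3.16, 3.16 and 4.10 CPM in T127. Its ratio was 2.22 (1.35 to 3.81) and the ranges were barely apart. On the log2(CPM + 1) scale the difference was 0.89, under 2-fold, and it was 0.44 without T127 pool 1 and 0.75 without T22 pool 3, each of which ended the call. Stab1 was 52.9, 62.4, 60.1 and 82.6 CPM in T22 and 78.7, 113, 119 and 115 CPM in T127, and T127 pool 1 lay below the highest T22 pool. Marco had 2 UMIs in T22 and 9 in T127. Cd36, the fatty acid receptor, went the other way, with 67.0, 112, 84.7 and 56.2 CPM in T22 and 15.5, 11.6, 16.4 and 7.38 CPM in T127, which was 6.28-fold lower (5.33 to 7.44) without overlap. The median log2 ratio of all genes was 0.08.

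**Figure D3:**
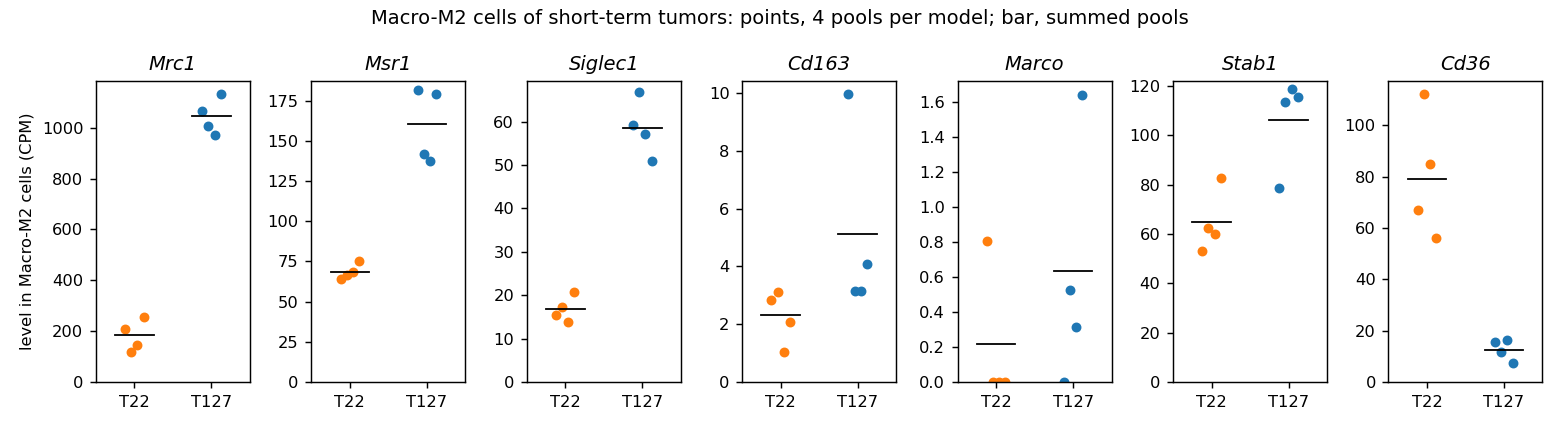
Level of each receptor gene in Macro-M2 cells of the 4 short-term T22 and 4 short-term T127 pools, in CPM on a linear axis from 0 that differs between genes, with 1 point per pool and a bar at the level over all pools. Mrc1, Siglec1 and Msr1 are higher in every T127 pool, Cd36 is lower in every T127 pool, and Stab1 overlaps.

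Marker lists of other cells also moved between the Macro-M2 cells of the 2 experiments. The 2 red cell genes summed to 0.659 CPM in T22 (pools 0.404 to 1.03) and 337 CPM in T127 (11.6 to 1443). The 5 neutrophil genes summed to 23.4 CPM (14.2 to 44.0) and 186 CPM (68.5 to 377), the 3 malignant cell genes to 57.8 CPM (47.6 to 77.0) and 163 CPM (135 to 176), and the 6 conventional dendritic cell genes to 129 CPM (57.5 to 184) and 86.5 CPM (65.1 to 118). The ranges of the conventional dendritic cell genes overlapped. Those of the other lists given so far lay apart, as did those of the T cell genes (38.8 and 16.7 CPM), fibroblast genes (79.0 and 38.9 CPM) and endothelial genes (12.2 and 37.7 CPM). All 9 macrophage genes were present in both, with sums of 23702 and 28423 CPM whose ranges did not overlap. The part of these in the receptor values was not tested. The 3 lymphatic endothelial genes summed to 5.49 and 186 CPM, with 1 of the 3 at 0 in each experiment. The median cell of Macro-M2 had 13221 UMIs in T22 and 11286 in T127.

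Mrc1 was also higher, and Cd36 lower, in other clusters of the T127 pools. In CD16-CDKN1C, Mrc1 was 63.7, 66.3, 66.7 and 72.1 CPM in the T22 pools and 898, 819, 818 and 643 CPM in the T127 pools, an 11.9-fold difference (11.03 to 12.9). There Siglec1 (6.37-fold), Stab1 (2.29-fold) and Msr1 (2.05-fold) were also higher in T127 and Cd36 was 2.57-fold lower, which made 4 of 7 higher against 12.4% of genes and 1 lower against 6.76%. In Macro-others, Mrc1 was 15.6-fold and Siglec1 3.801-fold higher and Cd36 6.20-fold lower, 2 higher against 10.6% and 1 lower against 6.76%. Stab1 in Macro-others had ranges apart in the other direction, at 76.9 CPM in T22 and 53.5 CPM in T127, under the 2-fold limit.

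In Macro-MKI67, 3 receptors were higher in T127 against 7.1% of genes, Mrc1 by 5.09-fold, Siglec1 by 3.89-fold and Msr1 by 2.44-fold, and Cd36 was 3.61-fold lower against 6.82%. In CD14-IL1B, Mrc1 had 15 UMIs in T22 (5.36 CPM) and stood at 284 CPM in T127, the 1 receptor higher against 6.72% of genes, and Cd36 was 3.67-fold lower, from 190 to 52.0 CPM, the 1 lower against 2.81%. In CD14-PF4, Mrc1 had 9 UMIs and Siglec1 3 UMIs in T22, and both were higher in T127 (468 and 30.2 CPM), 2 of 7 against 3.02%, with none lower against 4%. Siglec1 reached the 5 CPM limit in CD14-PF4 only in T127. Mrc1 was higher in T127 in all 6 clusters compared, Siglec1 in 5 of 6, Msr1 in 3, and Cd36 lower in 5, with CD14-PF4 as the exception for Cd36 (14 and 2 UMIs).

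Marker lists moved in these clusters as well. In Macro-MKI67 the neutrophil genes summed to 6.47 CPM in T22 (pools 3.42 to 7.67) and 95.3 CPM in T127 (21.2 to 152), and the malignant cell genes to 193 and 444 CPM. In CD16-CDKN1C the macrophage genes summed to 23230 CPM in T22 and 30659 CPM in T127, without overlap. In Macro-others the conventional dendritic cell genes summed to 26.6 CPM in T22 (17.0 to 45.8) and 439 CPM in T127 (334 to 545), the malignant cell genes to 58.8 and 631 CPM and the red cell genes to 0.4931 and 2554 CPM (T127 pools 5.02 to 9977). The red cell genes in CD14-PF4 summed to 1.32 and 9080 CPM, with pools of 0 to 21373 CPM in T127. In CD14-IL1B the macrophage genes summed to 2927 and 3937 CPM, with overlapping ranges, and the malignant cell genes to 176 and 663 CPM. The lymphatic endothelial genes were higher in T127 without overlap in CD16-CDKN1C (9.58 and 59.5 CPM), CD14-PF4 (9.25 and 104 CPM), Macro-others (7.12 and 98.2 CPM) and Macro-MKI67 (3.803 and 144 CPM). The part of these in the receptor values was not tested.

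**Figure D4:**
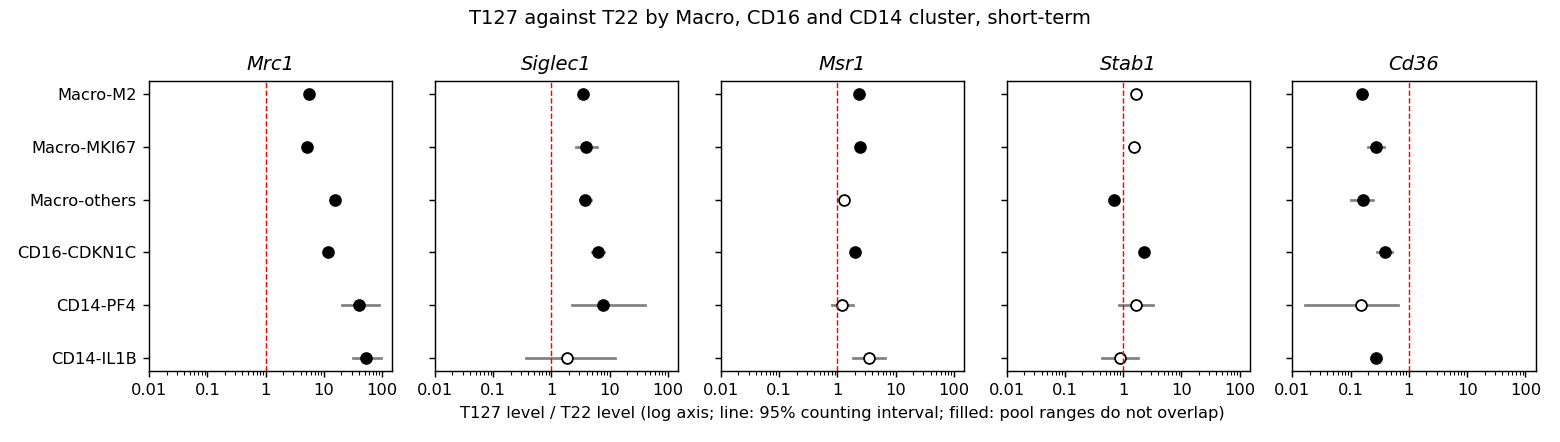
Ratio of the short-term T127 level to the T22 level of Mrc1, Siglec1, Msr1, Stab1 and Cd36 in 6 clusters with Macro, CD14 or CD16 names, on a log axis with 95% counting intervals. Filled points are those where the ranges of the 4 pools of each experiment do not overlap. Mrc1 lies to the right of 1 in all 6 clusters and Cd36 to the left.

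At the level of single cells, cells were thinned to 3000 UMIs each so that shares with a UMI could be set side by side. In the long-term pools 43.4% of the 3510 Macro-M2 cells left had an Mrc1 UMI, with a pool range of 37.3% to 53.0%, and 18.1% of the Macro-M1 cells. The share was 23.6% in short-term T22 (pools 21.3% to 25.6%) and 75.3% in T127 (pools 72.9% to 77.2%), and these ranges did not overlap. CD4_Tcm-TCF7, a T cell cluster that should lack the gene, had 0.780%, 0.271% and 1.16% in the 3 experiments. Before thinning the long-term shares were 61.8% in Macro-M2 and 1.76% in CD4_Tcm-TCF7, whose median cells had 11168 and 2758 UMIs. In the long-term pools 32.5% of thinned Macro-M2 cells had none of the 7 receptors and 9.72% had 3 or more. In Macro-M1 these shares were 50.1% and 2.59%, in short-term T22 Macro-M2 they were 44.2% and 3.88%, and in T127 Macro-M2 13.0% and 13.5%.

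Within Macro-M2 of the long-term pools, cells with Mrc1 carried Stab1, Siglec1 and Msr1 more often than cells without it. A gene was taken as co-detected where it was found in at least 5% of cells and its share was at least 1.5 times as high in cells with an Mrc1 UMI, with the same direction in every pool. In the long-term pools 3 of the other 6 receptors passed, against 6.98% of 5271 genes. With cells thinned to 5000 UMIs 1 passed and Stab1 (ratio 1.41) and Msr1 (1.43) did not, and Msr1 was also lost without pool 3 (1.49) or pool 4 (1.46). Stab1 was found in 28.0% of the 1523 cells with Mrc1 (interval 25.7% to 30.3%) and 14.2% of the 1987 without (12.7% to 15.9%), Siglec1 in 14.8% and 8.10%, and Msr1 in 33.7% and 21.99%. Cd163 was found in 69 cells with Mrc1 and 5 without, that is 4.53% and 0.252%, in the same direction in 8 of 8 pools but under the 5% limit. Cd36 was found in 3.22% of cells with Mrc1 and 6.04% without, and was the more frequent in cells with Mrc1 in 1 of 8 pools. With barcodes found in 1 pool only, Stab1 (ratio 1.92) and Msr1 (1.51) passed and Siglec1 (1.87) was higher in 7 of 8 pools. The share for Marco was 0.657% and 0.554%, with overlapping intervals.

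The short-term pools gave fewer such pairs. In T127 only Stab1 passed, at 20.9% of cells with Mrc1 and 8.97% without, higher in 4 of 4 pools, against 5.58% of genes. There Siglec1 was at 16.1% and 10.3%, a ratio of 1.55, but was higher in 3 of 4 pools only. Msr1 was at 35.6% and 36.9%. In T22, with 158 cells carrying Mrc1, none of the other 6 passed, 3 of which were under the 5% limit, against 4.78% of genes, and the shares were 19.6% and 16.6% for Stab1 and 3.16% and 5.08% for Siglec1. At full depth none of the long-term receptors passed either, with a Stab1 ratio of 1.13 and an Msr1 ratio of 1.26. Cd163 was 31.5 times as frequent in cells with Mrc1 at full depth. Among pairs without Mrc1, Cd163 and Stab1 were found together in 39 long-term Macro-M2 cells where 14.9 would share them if the genes were unrelated, Stab1 and Siglec1 in 144 where 78.2 would, and Stab1 and Cd36 in 25 where 34.1 would. Stab1 and Cd36 were found together in 11 cells of T22 where 12.6 would share them, the same side as in the long-term pools. In T127 Stab1 and Cd36 were found together in 11 cells where 5.75 would share them, the opposite side.

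Stab1, Cd163 and Siglec1 were highest in the cells with most Mrc1. Of the thinned long-term Macro-M2 cells, 1987 had no Mrc1 UMI, 526 had 1, 458 had 2 to 3 and 539 had 4 or more. Over these classes Stab1 stood at 55.2, 68.4, 75.0 and 411 CPM, so the step was at the last class, where the 8 pools lay between 350 and 453 CPM. Cd163 stood at 0.839, 6.97, 13.8 and 82.9 CPM, with pools from 38.9 to 142 CPM in the last class. Siglec1 stood at 30.0, 27.9, 47.3 and 111 CPM. Msr1 was at 98.3 CPM in the first class and 200 CPM in the last, and Cd36 at 25.5 and 13.6 CPM.

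These classes are ranges cut from a continuous count, and the 458 cells with 2 to 3 UMIs lie next to the last cut. Folr2 and Cbr2 are among the genes most often found with Mrc1 in these same cells, and Lyve1 and Cd74, the invariant chain of MHC class II, were named after their values were seen, so their levels over the classes are a description. Lyve1, Folr2 and Cbr2 stood at 253, 614 and 533 CPM in the last class and at 0, 17.6 and 12.2 CPM in cells without Mrc1, and Cd74 at 3151 and 15547 CPM. Before thinning, the median cell had 9959 UMIs in the last class and 11221 in the class without Mrc1. The last class made up 15.4% of long-term Macro-M2 cells (pools 12.8% to 22.1%), 4.18% in short-term T22 and 32.5% in short-term T127. In T127 the same step was seen for Stab1, from 33.3 CPM without Mrc1 to 226 CPM in the last class, and for Cd163, from 3.45 to 21.8 CPM. Msr1 in T127 was 190 and 196 CPM at the ends of the scale. Folr2 in T127 went from 25.3 CPM without Mrc1 to 205 CPM in the last class and Cbr2 from 19.5 to 148 CPM, while Lyve1 went from 0 to 4.36 CPM. Cd74 in T127 stood at 3995, 6263, 5310 and 2727 CPM over the classes, and in T22 at 13337 and 10810 CPM at the ends. C1qa rose from 1630 to 4503 CPM between the ends in T127, and was 9487 and 9806 CPM in the long-term pools.

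**Figure D5:**
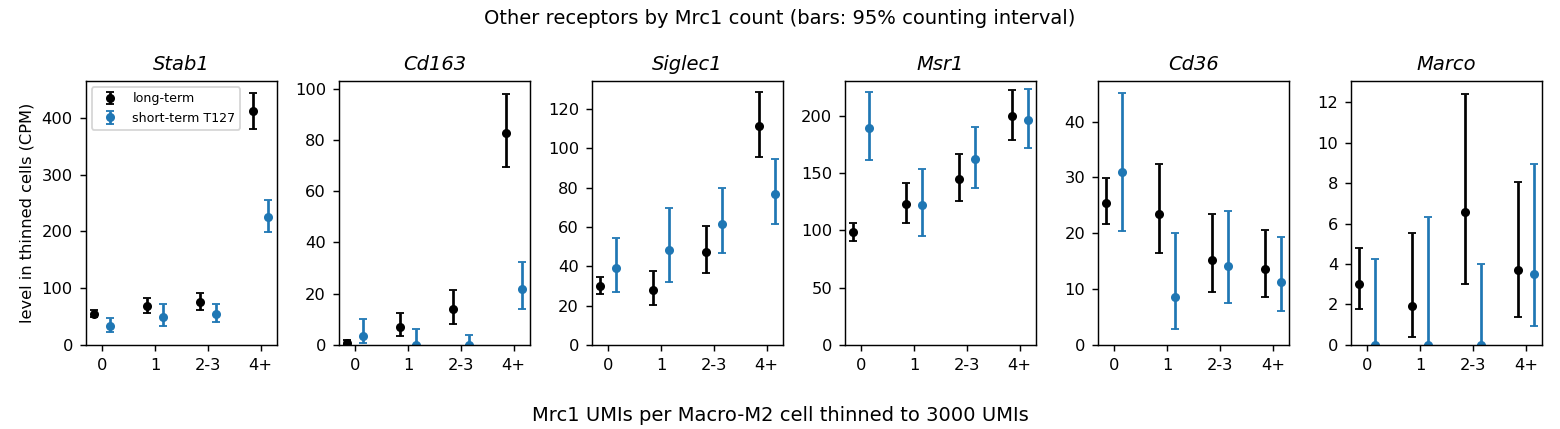
Level of Stab1, Cd163, Siglec1, Msr1, Cd36 and Marco in Macro-M2 cells grouped by Mrc1 UMIs per 3000, for the long-term and short-term T127 pools, in CPM on linear axes that differ between genes, with 95% counting intervals. Stab1 and Cd163 are highest in cells with 4 or more Mrc1 UMIs in both, whereas Msr1 in T127 is 190 and 196 CPM at the ends.

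The genes with the pattern most like that of a receptor over the 22 long-term clusters were taken by Pearson correlation of log2(CPM + 1) among 13555 genes, as a description of clusters that share libraries and depth. Closest to Mrc1 were B430306N03Rik and Fcrls (r = 0.98 each), then Cd300ld, Nxpe5, Ear2, Siglece, Lyz2 and Sirpb1c (r = 0.97). Closest to Msr1 were Ptpro, C130050O18Rik and C3ar1 (r = 0.98), and closest to Siglec1 were Ccl12, a monocyte-attracting chemokine, and C1qa and C5ar1. For Cd163 they were Nectin4, an epithelial adhesion gene, Cds1 and Clta (r = 0.87 to 0.89), for Stab1 Hlx, Htr2b and Chp2, for Cd36 Csf2rb2, Usp12 and Sh3tc1, and for Marco Cd5l, Vsig4 and Folr2. These names depend on the setting, since none of the 3 for Cd163 was kept without the malignant clusters, and none of the 3 for Marco or for Cd36 by Spearman's rho. Among the receptors themselves Mrc1 was near Msr1 (r = 0.95) and Siglec1 (r = 0.94) and far from Cd36 (r = 0.56) and Cd163 (r = 0.64).

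Related genes were counted in 5 lists. Of 20 mannose receptor family and C-type lectin genes, 16 passed the 5 CPM filter and 7 were higher in long-term Macro-M2 than Macro-M1, with none lower, against 3.43% and 0.106% of all genes. The median log2 ratio of the list was 0.75 against 0.10 for all genes. The higher genes were Cd209f (11.8-fold), Cd209g (12.8-fold), Clec4a1 (3.09-fold), Clec4e (2.46-fold), Clec10a (2.17-fold), Mgl2 (2.09-fold) and Clec12a (2.08-fold). Cd209g reached 5 CPM only in Macro-M2 (19.5 CPM, against 1.53 CPM in Macro-M1). The clusters were built from these same cells, so this count is a description. In the short-term T22 pools 5 of the 20 were higher in Macro-M2, namely Cd209a, Clec10a, Clec4a1, Clec4b1 and Clec4e, against 1.49% of genes, and Clec9a and Ly75 were lower, against 1.72%. Clec9a and Ly75 reached 5 CPM there only in Macro-M1. Cd209f and Cd209g were at 0.220 and 0 CPM in Macro-M2 there. The 4 with the highest long-term level in Macro-M2 were Clec4n (354 CPM), Clec4a2 (346 CPM), Clec4a3 (226 CPM) and Cd302 (161 CPM). No gene of the other 4 lists differed that way in the long-term pools, namely 16 other scavenger receptors, led by Cd14 (1885 CPM), Cd68 (725 CPM), Cxcl16 (531 CPM) and Lrp1 (177 CPM), 7 Siglec family genes, led by Cd33, Siglece, Cd22 and Mag, 5 genes of Dectin-1 signalling, led by Bcl10, Syk, Plcg2 and Malt1, and 10 genes of lipid and heme handling, led by Fabp5, Blvrb, Hmox1 and Abca1. In T22 the scavenger receptor Olr1 was the 1 gene of these lists that passed, higher in Macro-M2, where alone it reached 5 CPM (9.55 CPM).

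Between the short-term models in Macro-M2, 4 of the 20 lectin genes were higher in T127, Clec4d (8.13-fold), Clec4n (4.09-fold), Mgl2 (2.49-fold) and Clec4e (2.19-fold), and Clec4b1 was 5.54-fold lower, with a median log2 ratio of 0.19 over the 14 that passed the filter against 0.08 for all genes. Over all genes 7.97% were higher and 6.74% lower, which is the background of this and the following counts. Of the 10 lipid and heme genes, which handle the cargo of Cd36 and Cd163, the fatty acid binding protein Fabp5 was 9.95-fold and the cholesterol exporter Abcg1 2.01-fold higher, and the lipoprotein lipase Lpl was 21.1-fold lower. In the Siglec family Siglece (3.28-fold) and Siglech (15.3-fold) were lower and none was higher, in contrast to Siglec1. Siglece was at 97.3 CPM in T22 and 29.7 CPM in T127. Siglech, highest in pDC (878 CPM, long-term), was near the 5 CPM limit at 5.38 CPM in T22 and 0.351 CPM in T127. Malt1 of Dectin-1 signalling (2.60-fold) and the scavenger receptor Scarf1 (3.20-fold, from 1.87 CPM in T22 to 5.97 CPM in T127) were higher, and no other gene of those 2 lists passed.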

How the data were processed

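Tumors of the LPA1-T22 and LPA1-T127 models were captured by the authors as 16 pools of hashtagged cells (8 long-term, 4 short-term T22, 4 short-term T127). The deposited tables hold raw UMI counts per cell and gene, made by the authors with Cell Ranger 6.0.0 on GRCm38 (named in the submitters' processing notes) with introns counted, after sparse cells, cells rich in mitochondrial RNA and doublets called by Scrublet had been taken out. Cluster names were taken from the deposited annotation. Labels name the organism as human, but all cells are mouse and were treated as such.

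Counts of each gene were summed per cluster and pool and divided by all UMIs of those cells (CPM). In the long-term pools the deepest copy of each shared barcode was kept. Log2 ratios used a pseudocount of 1 CPM, and clusters of at least 20 cells (5 per pool) were used. The edges of 95% intervals are exact Poisson or binomial bounds. A count of 0 allows up to 3 counts. Differences needed a 2-fold ratio of CPM without the pseudocount, at least 5 CPM on one side, and the same direction in every pool (within an experiment) or ranges that do not overlap (between experiments). Shares of cells were taken after thinning each cell to 3000 UMIs, which left out shallower cells. No test was run, since no map from cells to tumors was used here. Genes named beyond the receptors were the 8 most like Mrc1 and the 3 most like each other receptor, the 8 with the highest co-detection ratio, and, in each list, the 4 highest in Macro-M2 and those different between the groups. Lyve1, Cd74, Xcr1, Epcam, Krt8, Krt18, the genes found least often with Mrc1 and those leading in the short-term pools were named after their values were seen. The receptors, lists and rules were chosen with earlier results of these data known. Alternatives were other pseudocounts, thinning depths, gene totals, barcodes and pools. Sums and thinning ran in numpy 2.4.6 and pandas 2.3.3 under Python 3.11.15, intervals came from scipy 1.17.1 and plots from matplotlib 3.10.9, and the steps were tested on simulated data.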

Additional observations from a re-analysis of the deposited data

Results flagged for a closer look

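In 55 groups of 4 or 8 pools 10 pools stood far from the rest by Dixon's criterion, which chance gives in about 1 of 20 groups of normally distributed values. A single pool with UMIs among pools with none always meets the criterion, so the 10 flags cannot be set against that rate. In Macro-M2, Cd163 in short-term T127 pool 1 was 9.97 CPM (others 3.16 to 4.10), Stab1 in the same pool was 78.7 CPM (others 113 to 119), Stab1 in long-term pool 8 was 142 CPM (others 82.1 to 110), Cd36 in long-term pool 6 was 40.7 CPM (others 17.2 to 27.6), and Marco in short-term T22 pool 1 was 0.807 CPM with the others at 0. In Macro-M1, Cd163 in long-term pool 4 was 8.84 CPM (others 0 to 1.92), and Marco was 1.27 CPM in long-term pool 1 and 0.218 CPM in short-term T22 pool 4, with no UMI in the other pools of each. Stab1 in endothelial cells of long-term pool 5 was 199 CPM (others 76.0 to 116), and Cd163 in CD16-CDKN1C of long-term pool 4 was 40.8 CPM (others 0.807 to 6.75). The 3 Marco values are 1 or 2 UMIs each. No pair of the 25 contrasts examined had all pools of one experiment on one side and all pools of the other on the opposite side.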

How the results depend on the processing

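Of 514 values recomputed under other settings, 477 moved by less than the standard deviation between pools or, for counts, by no more than 1.5-fold. The other 37 moved, and no value that passed its rule changed sign. Leaving out 1 pool moved no value by this rule, and counts stayed within 1.5-fold where a call was lost, so 477 is no measure of stability. Cd36, which did not pass, had a log2 ratio of Macro-M2 to Macro-M1 of 0.36 in the short-term T22 pools and -0.53 in the long-term pools. Mrc1 in long-term Macro-M2 was 640 CPM without mitochondrial and ribosomal protein genes in the total. Its log2 ratio of Macro-M2 to Macro-M1 was 1.54 in the short-term T22 pools, where 1 receptor was called higher. Receptors co-detected with Mrc1 numbered 0 at full depth, 1 at 5000 UMIs, 0 in the T22 pools and 1 in the T127 pools. Of the 8 genes most like Mrc1, 3 were kept by Spearman's rho, 3 with a pseudocount of 10 CPM and 4 without the malignant clusters. The causes were not tested. Leaving out each pool gave log2 ratios of Mrc1 of 2.24 to 2.41 (Macro-M2 to Macro-M1) and 2.32 to 2.71 (T127 to T22), 3 receptors called higher in Macro-M2, 3 to 4 in T127 and 2 to 3 co-detected. The call of Cd163 in T127 was lost without T127 pool 1 (0.44) or T22 pool 3 (0.75), and that of Msr1 with Mrc1 without long-term pool 3 (ratio 1.49) or 4 (1.46). Marco was highest in Macro-MKI67 without the top 5% of cells by UMIs, with barcodes of 1 pool only (chosen after seeing the data) or without pool 2, and in Macro-M2 by the pool median. Macro-M2 and Macro-M1 were paired by pool, with no test. No paired analysis was possible between T22 and T127 because their pools share a number only. Marco and Cd163 had the fewest UMIs in long-term Macro-M2 (153 and 564), which limits their precision.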

Other observations

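Among genes found in at least 5% of long-term Macro-M2 cells, the 8 with the highest co-detection ratio to Mrc1 held no other receptor, while Cd163, under that limit, had a ratio of 18.0. Igf1, a growth factor, was in 11.9% of cells with Mrc1 and 0.856% of those without, a ratio of 13.9. It was followed by Folr2, a folate receptor (8.23), Cbr2 (8.01), the galactose-type lectin Clec10a (7.66), Fcna (7.53), C4b (6.64), F13a1 (6.02) and the chemokine Ccl8 (5.62). The share ratio of Stab1, the highest among the receptors that passed the 5% limit, was 1.96. The genes found least often with Mrc1 were led by Lrrc3, Slamf7, Npnt and Cd207, the last in 5.45% of cells with Mrc1 and 20.5% of those without.

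The list differed in the short-term pools, whose genes were looked at after the long-term values were seen. In T22 it was led by Rgs18 (6.25), Mgl2 (5.73), Ccl7 (5.01) and Fcrls (4.86), and in T127 by Ppbp (10.5), Enpp1 (9.84), Gas6 (7.76) and Gpr34 (5.47). In T127 the cells without Mrc1 more often held Ifitm6, at 20.7% against 4.07%.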
